A study of Homo sapiens with 4 samples.

Results

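The large ribosomal subunit of human cells holds 28S and 5.8S rRNA, and 2′-O-methylation was scored at 31 of its positions that are described here. They are the 2 scored positions of 5.8S rRNA and the 29 scored positions of 28S rRNA numbered 3400 or lower, beside 77 other scored rRNA positions in the series, and they were chosen by rRNA and position alone. These others are 39 in 18S rRNA and 38 in 28S rRNA above 3400. Total RNA came from HAP1, a near-haploid human cell line derived from a leukaemia, and each of 4 samples gave 1 RiboMethSeq library. PAF49deltaIDR-GFP and PAF49delta1/2IDR-GFP are named for deletions in PAF49 and carry a GFP tag. PAF49-GFP carries the tag with no deletion named, and PAF49 is labelled with neither. These last 2 are called full-length below. IDR stands for an intrinsically disordered region, a protein segment without a stable fold, according to the series title. Which residues were removed, how the proteins were expressed, whether the cells kept their own PAF49 and whether a line is 1 clone is left unstated by the labels. The table holds rRNA positions only, so neither the cell identity nor the level of PAF49 could be checked in it.

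PAF49 is a subunit of RNA polymerase I, the enzyme that transcribes the rRNA precursor in the nucleolus, and its gene is POLR1G. 28S and 5.8S rRNA are cut from that same precursor and stay base-paired to each other in the large subunit. The methyl groups are added while the precursor matures: a box C/D small nucleolar RNA pairs with the rRNA and directs the methyltransferase fibrillarin to 1 nucleotide. Partial methylation means that some rRNA molecules carry the methyl group at a position and others do not, and it is known to vary between positions and cell types. RiboMethSeq reads the modification as missing fragment ends after mild alkaline hydrolysis, because the methylated ribose resists cleavage. The MethScore of a position lies from 0 to 1, with higher values read as stronger protection. Site names give the rRNA, the methylated nucleotide and its position, so that 28S-Gm1316 is a methylated guanosine at position 1316 of 28S rRNA. RefSeq lists 5 genes each for 28S and 5.8S rRNA (GRCh38.p14), and a score pools all copies. It is also an average over all RNA in a library, and a share of ribosomes within each cell cannot be told apart from a share of cells. Each group had 1 library and the depth behind the scores is unknown, so no difference below has a replicate check, an error or a p-value.

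Scores in the 5′ part of 28S rRNA and in 5.8S rRNA were mostly below 0.9. The mean over the 4 libraries was 0.9 or above at 11 of the 31 sites (35.5%), from 0.5 to 0.9 at 19 and under 0.5 at 1. Over all scored sites, 59 (54.6%) had a mean of 0.9 or above. In the rest of the series the count was 48 of 77, made up of 25 of 39 sites in 18S rRNA and 23 of 38 sites in 28S rRNA above 3400. The median of the site means was 0.860 over the 31 sites, 0.924 in 18S rRNA and 0.920 in 28S rRNA above 3400. At 18 of the 31 sites no library reached 0.9, against 7 of 39 in 18S rRNA and 13 of 38 in 28S rRNA above 3400. At 9 sites every library reached 0.9, against 23 of 39 in 18S rRNA and 21 of 38 in 28S rRNA above 3400. At 4 of the 31 sites the libraries lay on both sides of 0.9, against 9 of 39 and 4 of 38 in the same order. The 4 sites among the 31 were 28S-Am400, 28S-Cm1340, 28S-Gm1522 and 28S-Am1524. The differences between stretches of rRNA were not tested, since sites of the same libraries are not replicates.

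In 28S rRNA from 1700 to 3400 site means ran from 0.0331 to 0.991, the widest spread of any stretch only through its low end. The low end was the single site 28S-Um2044, and the next lowest mean there was 0.556 at 28S-Cm2861. Elsewhere the lowest mean was 0.508 in 28S rRNA up to 1700, 0.403 above 3400 and 0.120 in 18S rRNA. The highest means there were 0.985, 0.977 and 0.984 in the same order. Without 28S-Um2044 the spread from 1700 to 3400 was thus narrower than in each of these stretches. The 19 sites from 1700 to 3400 had a median mean score of 0.821 and 13 of them reached 0.9 in no library. The 10 sites up to 1700 had a median of 0.897, and 3 of them reached 0.9 in no library. Both sites of 5.8S rRNA lay between 0.8 and 0.9 in every library, and their means had a median of 0.842. By library, the median over the 31 sites was 0.874 in PAF49deltaIDR-GFP, 0.871 in PAF49delta1/2IDR-GFP, 0.873 in PAF49-GFP and 0.848 in PAF49. Scores of 0.9 or above numbered 13 in PAF49deltaIDR-GFP and 11 in PAF49delta1/2IDR-GFP, against 10 in PAF49-GFP and 9 in PAF49. Over all scored sites these counts were 64 in PAF49deltaIDR-GFP and 62 in PAF49delta1/2IDR-GFP, against 56 in PAF49-GFP and 60 in PAF49. By this count PAF49 was not the lowest library there. By its median over all scored sites it was, at 0.908 beside 0.909 in PAF49-GFP.

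**Figure D1:**
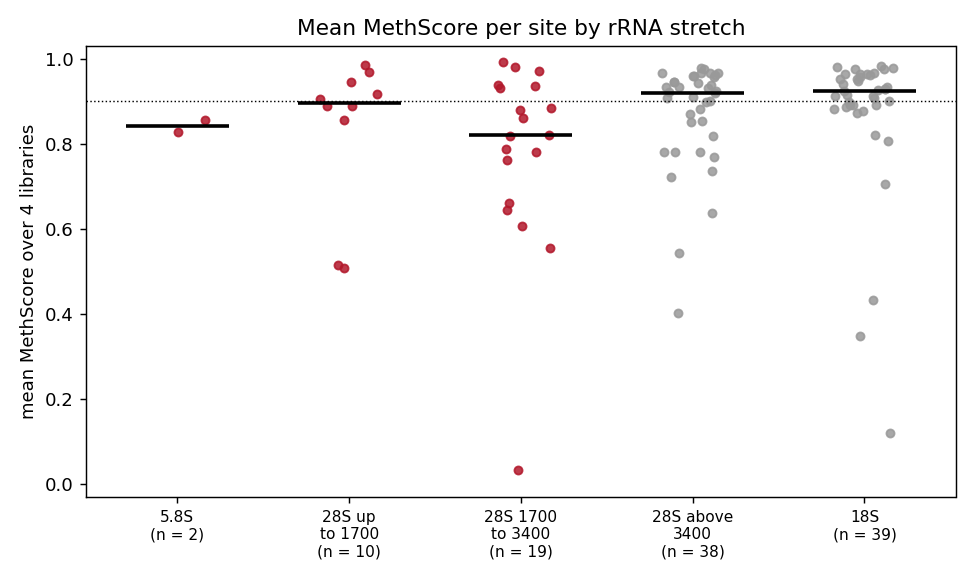
Mean MethScore over the 4 libraries (vertical axis, 0 to 1) for every site, grouped by stretch of rRNA, with a bar at each median and a dotted line at 0.9. The 19 sites of 28S rRNA from 1700 to 3400 have a median of 0.821, against 0.920 above 3400 and 0.924 in 18S rRNA.

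The 5.8S rRNA sites scored under 0.9 in every library and were steady. 5.8S-Um14, the target of SNORD71, scored 0.820 in PAF49deltaIDR-GFP and 0.837 in PAF49delta1/2IDR-GFP, against 0.833 in PAF49-GFP and 0.818 in PAF49. 5.8S-Gm75, the target of SNORD96A, scored 0.874 in PAF49deltaIDR-GFP and 0.860 in PAF49delta1/2IDR-GFP, against 0.846 in PAF49-GFP and 0.848 in PAF49. The libraries overlapped by group at Um14, where PAF49delta1/2IDR-GFP was highest and PAF49 lowest. At Gm75 each deletion scored above each full-length library, by 0.0120 between the nearest values. The range over the libraries was 0.0197 at Um14 and 0.0275 at Gm75.

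The first methylated pair of 28S rRNA lies 2 nt apart. 28S-Am398, the target of SNORD26, scored 0.885 in PAF49deltaIDR-GFP and 0.892 in PAF49delta1/2IDR-GFP, against 0.886 in PAF49-GFP and 0.893 in PAF49. All libraries thus fell within 0.00829 of each other, the smallest range among sites with a mean under 0.9. 28S-Am400, the target of SNORD81, lay between 0.927 in PAF49deltaIDR-GFP and 0.891 in PAF49, with PAF49 standing below the other libraries.

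No scored site lies in the next 916 nt, and then a pair of neighbours with scores near 0.5 follows. 28S-Gm1316, the target of SNORD21, scored 0.537 in PAF49deltaIDR-GFP and 0.574 in PAF49delta1/2IDR-GFP, against 0.445 in PAF49-GFP and 0.5003 in PAF49. The deletions were highest here, and the nearest deletion and full-length values were 0.0367 apart. 28S-Am1323, 7 nt further on, scored 0.494 in PAF49deltaIDR-GFP and 0.539 in PAF49delta1/2IDR-GFP, against 0.525 in PAF49-GFP and 0.476 in PAF49. There the groups overlapped. 28S-Am1326, a target of SNORD18A and only 3 nt beyond Am1323, scored 0.965 in PAF49deltaIDR-GFP and 0.970 in PAF49delta1/2IDR-GFP, against 0.968 in PAF49-GFP and 0.969 in PAF49. Within this run of 10 nt the mean score was thus 0.514, 0.508 and 0.968.

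28S-Cm1340, a target of SNORD104, was among the least steady sites. It scored 0.915 in PAF49deltaIDR-GFP and 0.841 in PAF49delta1/2IDR-GFP, against 0.874 in PAF49-GFP and 0.794 in PAF49. PAF49deltaIDR-GFP was highest and PAF49 lowest, while PAF49-GFP lay above PAF49delta1/2IDR-GFP, so the deletions did not separate from the full-length proteins. The range was 0.121.

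The next cluster held sites close to 0.9. 28S-Gm1522 scored 0.901 in PAF49deltaIDR-GFP and 0.877 in PAF49delta1/2IDR-GFP, against 0.892 in PAF49-GFP and 0.886 in PAF49, with the deletions at both ends. 28S-Am1524, a target of SNORD51, scored 0.931 in PAF49deltaIDR-GFP and 0.922 in PAF49delta1/2IDR-GFP, against 0.889 in PAF49-GFP and 0.877 in PAF49. Both deletions lay above 0.9 and both full-length libraries below it, with 0.0326 between the nearest values. 28S-Am1534, a target of SNORD77, scored 0.986 in PAF49deltaIDR-GFP and 0.983 in PAF49delta1/2IDR-GFP, against 0.987 in PAF49-GFP and 0.984 in PAF49. Like 28S-Gm1625, a target of SNORD80 that ran from 0.944 to 0.949, it barely moved between libraries.

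From position 1760 to 2044, sites ranged from nearly full to nearly absent protection. 28S-Gm1760 scored 0.819 in PAF49deltaIDR-GFP and 0.866 in PAF49delta1/2IDR-GFP, against 0.751 in PAF49-GFP and 0.837 in PAF49. PAF49-GFP stood below the other libraries, and PAF49 lay between the deletions. 28S-Am1871, the target of SNORD38A, ran from 0.964 in PAF49deltaIDR-GFP to 0.979 in PAF49delta1/2IDR-GFP. 28S-Cm1881, 10 nt away and the target of SNORD48, scored 0.704 in PAF49deltaIDR-GFP and 0.672 in PAF49delta1/2IDR-GFP, against 0.656 in PAF49-GFP and 0.613 in PAF49. Its deletions lay above its full-length libraries by 0.0168.

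28S-Um2044 was the lowest of all scored sites. It scored 0.0902 in PAF49deltaIDR-GFP and 0.0278 in PAF49delta1/2IDR-GFP, and was listed at 0 in PAF49-GFP and at 0.0142 in PAF49. PAF49deltaIDR-GFP was the highest, and each deletion scored above each full-length library. Without depth, and with the treatment of low scores unknown, it cannot be said whether the scores of the other libraries differ from 0, and no fold is given.

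Among the sites from 2351 to 2365, 28S-Am2363 and 28S-Gm2364 scored highest. 28S-Am2363, the target of SNORD76, ran from 0.976 to 0.983, and 28S-Cm2351, a target of SNORD24, from 0.924 to 0.946. 28S-Gm2364 scored 0.989 in PAF49deltaIDR-GFP and 0.993 in PAF49delta1/2IDR-GFP, against 0.991 in PAF49-GFP and 0.992 in PAF49. It had the highest mean of all scored sites (0.991). 28S-Cm2365, the next nucleotide and also a target of SNORD24, scored 0.805 in PAF49deltaIDR-GFP and 0.799 in PAF49delta1/2IDR-GFP, against 0.768 in PAF49-GFP and 0.781 in PAF49. Its deletions lay above its full-length libraries by 0.0178.

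The group from 2401 to 2424 scored under 0.9 throughout. 28S-Am2401 scored 0.800 in PAF49deltaIDR-GFP and 0.779 in PAF49delta1/2IDR-GFP, against 0.789 in PAF49-GFP and 0.753 in PAF49. 28S-Um2415 scored 0.802 in PAF49deltaIDR-GFP and 0.734 in PAF49delta1/2IDR-GFP, against 0.797 in PAF49-GFP and 0.713 in PAF49. At both sites PAF49deltaIDR-GFP and PAF49-GFP were the higher pair and PAF49 the lowest, so the groups overlapped. 28S-Cm2422 scored 0.874 in PAF49deltaIDR-GFP and 0.891 in PAF49delta1/2IDR-GFP, against 0.873 in PAF49-GFP and 0.882 in PAF49. 28S-Gm2424 scored 0.874 in PAF49deltaIDR-GFP and 0.894 in PAF49delta1/2IDR-GFP, against 0.878 in PAF49-GFP and 0.890 in PAF49. These neighbours, 2 nt apart, had PAF49delta1/2IDR-GFP and PAF49 as the higher pair, the opposite grouping to Am2401 and Um2415.

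A stretch with sites from 2787 to 2876 closes the set. 28S-Am2787, the target of SNORD99, scored 0.779 in PAF49deltaIDR-GFP and 0.871 in PAF49delta1/2IDR-GFP, against 0.786 in PAF49-GFP and 0.846 in PAF49. The deletions were the extremes, with a full-length library next to each. 28S-Cm2804, the target of SNORD55, ran from 0.927 to 0.944, and 28S-Um2837, the target of SNORD34, from 0.911 in PAF49deltaIDR-GFP to 0.945 in PAF49.

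28S-Am2815 and 28S-Cm2824, 9 nt apart, are both targets of SNORD95. Am2815 scored 0.888 in PAF49deltaIDR-GFP and 0.866 in PAF49delta1/2IDR-GFP, against 0.846 in PAF49-GFP and 0.838 in PAF49. Cm2824 scored 0.728 in PAF49deltaIDR-GFP and 0.655 in PAF49delta1/2IDR-GFP, against 0.599 in PAF49-GFP and 0.597 in PAF49. The libraries had the same order at both sites, with PAF49deltaIDR-GFP highest, and the deletions lay above the full-length libraries by 0.0198 and 0.0561.

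28S-Cm2861 and 28S-Gm2876, both targets of SNORD50A, were the last and among the lowest sites. Cm2861 scored 0.530 in PAF49deltaIDR-GFP and 0.559 in PAF49delta1/2IDR-GFP, against 0.586 in PAF49-GFP and 0.548 in PAF49. Gm2876 scored 0.601 in PAF49deltaIDR-GFP and 0.600 in PAF49delta1/2IDR-GFP, against 0.621 in PAF49-GFP and 0.607 in PAF49. PAF49-GFP was highest at both, and Gm2876 was the only one of the 31 sites at which both deletions lay below both full-length libraries, with a gap of -0.00625. The next scored position of 28S rRNA, Cm3701, lies 825 nt further on, outside the set, and the mean was 0.607 at Gm2876, against 0.921 at Cm3701.

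**Figure D2:**
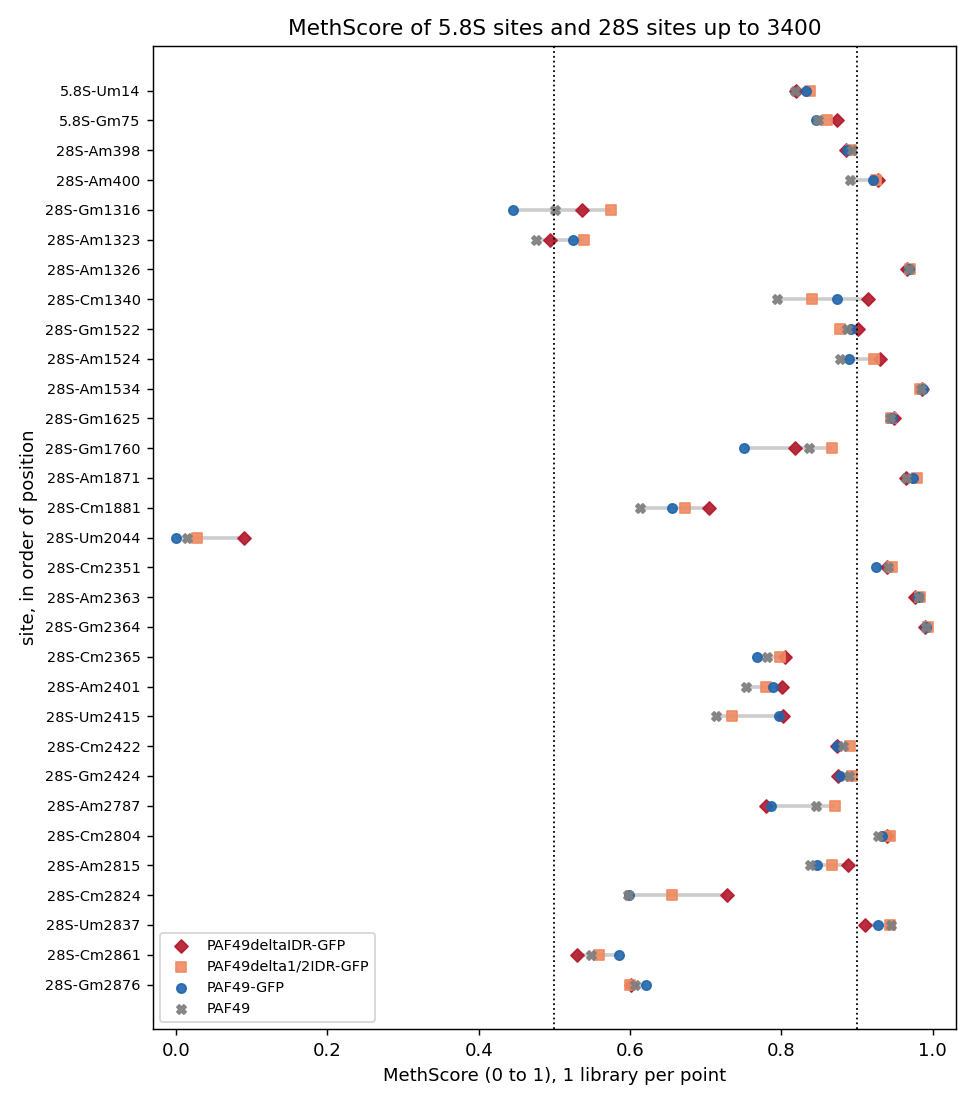
MethScore (horizontal axis, 0 to 1) of each of the 31 sites, in order of position down the page, with 1 symbol per library, a grey line from lowest to highest and dotted lines at 0.5 and 0.9. 28S-Um2044 sits between 0 and 0.0902, and 28S-Gm1316 and 28S-Am1323 lie around 0.5 beside 28S-Am1326 at 0.968.

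Some sites that share a guide or lie side by side differed in level, and others did not. Of the 11 pairs of adjacent sites within 10 nt, 5 had mean scores within 0.05 of each other and 5 had means 0.1 or more apart. Such pairs were not counted over all scored sites or set against more distant pairs. Whether neighbours differ more or less than other sites was thus not tested. The widest pair was 28S-Am1323 and 28S-Am1326, whose means differed by 0.460 over 3 nt. 28S-Am1871 and 28S-Cm1881 differed by 0.309, and 28S-Gm2364 and 28S-Cm2365 by 0.203. For the guides with a pair of targets here, the means were 0.937 at Cm2351 and 0.788 at Cm2365 (SNORD24), 0.860 at Am2815 and 0.645 at Cm2824 (SNORD95), and 0.556 at Cm2861 and 0.607 at Gm2876 (SNORD50A). Guide names are background knowledge: their match to the positions numbered here was not checked, and the guides were not measured. A score can depend on the local sequence and on methylated neighbours, and that part was not tested. By base, the median of the site means was 0.905 over 11 adenosines, 0.822 over 8 cytidines, 0.870 over 8 guanosines and 0.794 over 4 uridines. Adenosines had 6 sites at 0.9 or above, cytidines and guanosines 2 each and uridines 1. The 4 uridines include 28S-Um2044, with a mean of 0.0331. Scores were not split by base over all scored sites, so whether this order is particular to the sites described here was not tested.

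How steady a site was went with its level, here as over all scored sites. Scores end at 1, so a site near 1 has little room to vary, and steadiness apart from that limit was not tested. The range over the 4 libraries had a median of 0.0346 over the 31 sites and ran from 0.00418 at 28S-Gm2364 to 0.130 at 28S-Cm2824. Next to Gm2364, 28S-Am1534 (0.00434) and 28S-Am1326 (0.00437) were the steadiest, and all 3 had means above 0.96. Among the 11 sites with a mean of 0.9 or above the median range was 0.0152, and only 28S-Am1524 had a range of 0.05 or more. Among the 19 sites from 0.5 to 0.9 the median range was 0.0504, and 10 had a range of 0.05 or more. Over all scored sites the median range was 0.0132 at 0.9 or above, where 2 of 59 sites had a range of 0.05 or more, and 0.0606 from 0.5 to 0.9, where 27 of 44 did. In all, 12 of the 31 sites had a range of 0.05 or more, beside 30.6% of all scored sites. The count was 8 with PAF49deltaIDR-GFP left out and also 8 with PAF49 left out. A range of 0.1 or more was found at 4 sites: 28S-Cm2824, 28S-Gm1316 (0.130 each), 28S-Cm1340 (0.121) and 28S-Gm1760 (0.116). In the rest of the series 8 of 77 sites had a range of that size. Some sites with a mean under 0.9 were steady all the same. 28S-Gm2876, with a mean of 0.607, had a range of 0.0218, and 28S-Am398, 28S-Cm2422 and 28S-Gm2424, with means from 0.880 to 0.889, had ranges under 0.02.

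**Figure D3:**
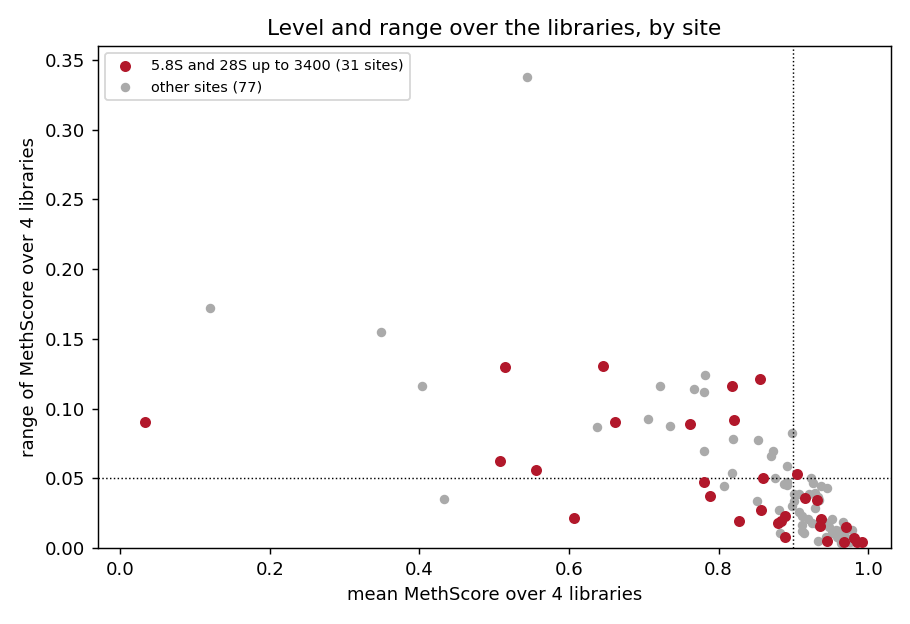
Range of the MethScore over the 4 libraries (vertical axis) against its mean (horizontal axis) for each site, with the 31 sites in red and all other sites in grey, and dotted lines at a range of 0.05 and a mean of 0.9. Of the 11 red points at or above 0.9, 1 reaches a range of 0.05, against 10 of the 19 from 0.5 to 0.9.

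PAF49deltaIDR-GFP was set against PAF49-GFP to ask how scores differ when the tagged protein carries the deletion. 1 of the 31 sites differed by 0.1 or more, 28S-Cm2824, which was higher by 0.129, while 4.63% of all scored sites differed by that much in either direction and 2.78% were higher by it. 28S-Gm1316 (0.0922 higher), 28S-Um2044 (0.0902 higher, with PAF49-GFP listed at 0) and 28S-Gm1760 (0.0680 higher) came next, and 28S-Cm2861 was the furthest below, at -0.0558. At 18 of the 31 sites the difference was under 0.02 in size, beside 65.7% of all scored sites. Of the 31 sites 18 scored higher and 13 lower, where 58.3% of all scored sites were higher. Setting the libraries to 1 median made this 16 higher and 15 lower, and quantile normalisation 11 higher, 14 lower and 6 tied. Over all scored sites these splits were 52 higher and 56 lower, then 48 higher, 53 lower and 7 tied. The median difference was 0.00517 over the 31 sites and 0.00310 over all sites. Against PAF49 in place of PAF49-GFP, 28S-Cm2824 (0.130) and 28S-Cm1340 (0.121) were higher by 0.1 or more, where 4.63% of all sites were past that size. Quantile normalisation brought Cm2824 below 0.1 with either control, to 0.0807 against PAF49-GFP and 0.0617 against PAF49, and left no site past 0.1 against PAF49-GFP. Against PAF49 it left 28S-Cm1340 higher by 0.108 and put 28S-Am2787 past 0.1 on the lower side, at -0.101.

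The same question was asked of PAF49delta1/2IDR-GFP against PAF49-GFP. 28S-Gm1316 was higher by 0.130 and 28S-Gm1760 by 0.116, and no site was lower by 0.1, so 2 of 31 sites were past that size. Of all scored sites 3.7% differed by as much and 2.78% were higher by it. After quantile normalisation Gm1316 was higher by 0.104 and Gm1760 by 0.0908, so the call at Gm1760 was lost. The next sites were 28S-Am2787 (0.0849) and 28S-Cm2824 (0.0561) above, and 28S-Um2415 (-0.0626) below. Of the 31 sites 23 scored higher and 8 lower, where 63% of all scored sites were higher. That split was 16 higher and 15 lower once the libraries were set to 1 median, and 14 higher, 12 lower and 5 tied after quantile normalisation. Over all scored sites these splits were 44 higher and 64 lower, then 46 higher, 51 lower and 11 tied. The median difference was 0.0106, beside 0.00400 over all sites. PAF49-GFP was the lowest library at both Gm1316 and Gm1760. With PAF49 as control the differences were 0.0741 at Gm1316 and 0.0298 at Gm1760, and no site was past 0.1, beside 0.926% of all sites.

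Between the deletions, no site of the 31 differed by 0.1, beside 3.7% of all scored sites. The largest differences, as PAF49deltaIDR-GFP minus PAF49delta1/2IDR-GFP, were 0.0736 at 28S-Cm1340, 0.0725 at 28S-Cm2824, 0.0677 at 28S-Um2415 and 0.0623 at 28S-Um2044. The most negative was -0.0920 at 28S-Am2787, which became -0.103 after quantile normalisation. Past 0.05 there were 5 of 31 sites, beside 16.7% of all scored sites. There were 15 sites higher and 16 lower, where 45.4% of all scored sites were higher, with a median of -0.00418 beside -0.00287 over all sites.

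PAF49-GFP and PAF49 show how far libraries with no named deletion lie apart, although the tag and the variation between libraries cannot be told apart. No site of the 31 differed by 0.1, beside 1.85% of all scored sites. The largest positive differences were 0.0840 at 28S-Um2415 and 0.0805 at 28S-Cm1340. On the other side stood -0.0861 at 28S-Gm1760, -0.0591 at 28S-Am2787 and -0.0554 at 28S-Gm1316. These 5 of 31 sites differed by 0.05 or more, beside 12% of all scored sites. Past 0.05 there were also 5 sites for PAF49deltaIDR-GFP minus PAF49-GFP, beside 13.9% of all scored sites, and 5 for PAF49delta1/2IDR-GFP minus PAF49-GFP, beside 12%. PAF49-GFP scored above PAF49 at 17 sites and below it at 14, where 60.2% of all scored sites were above. After quantile normalisation it was above at 10, below at 15 and tied at 6. Over all scored sites it was then above at 52, below at 44 and tied at 12. The median difference was 0.00230, beside 0.00291 over all sites. PAF49-GFP enters this comparison and both comparisons of a deletion with it, so their values at a site are not independent. At 28S-Cm2824, PAF49deltaIDR-GFP differed from PAF49-GFP by 0.129 and PAF49delta1/2IDR-GFP by 0.0561, against 0.00181 for PAF49-GFP minus PAF49. After quantile normalisation these differences were 0.0807 and 0.0432, against -0.0190. This site is named because its deletion difference was past 0.1.

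**Figure D4:**
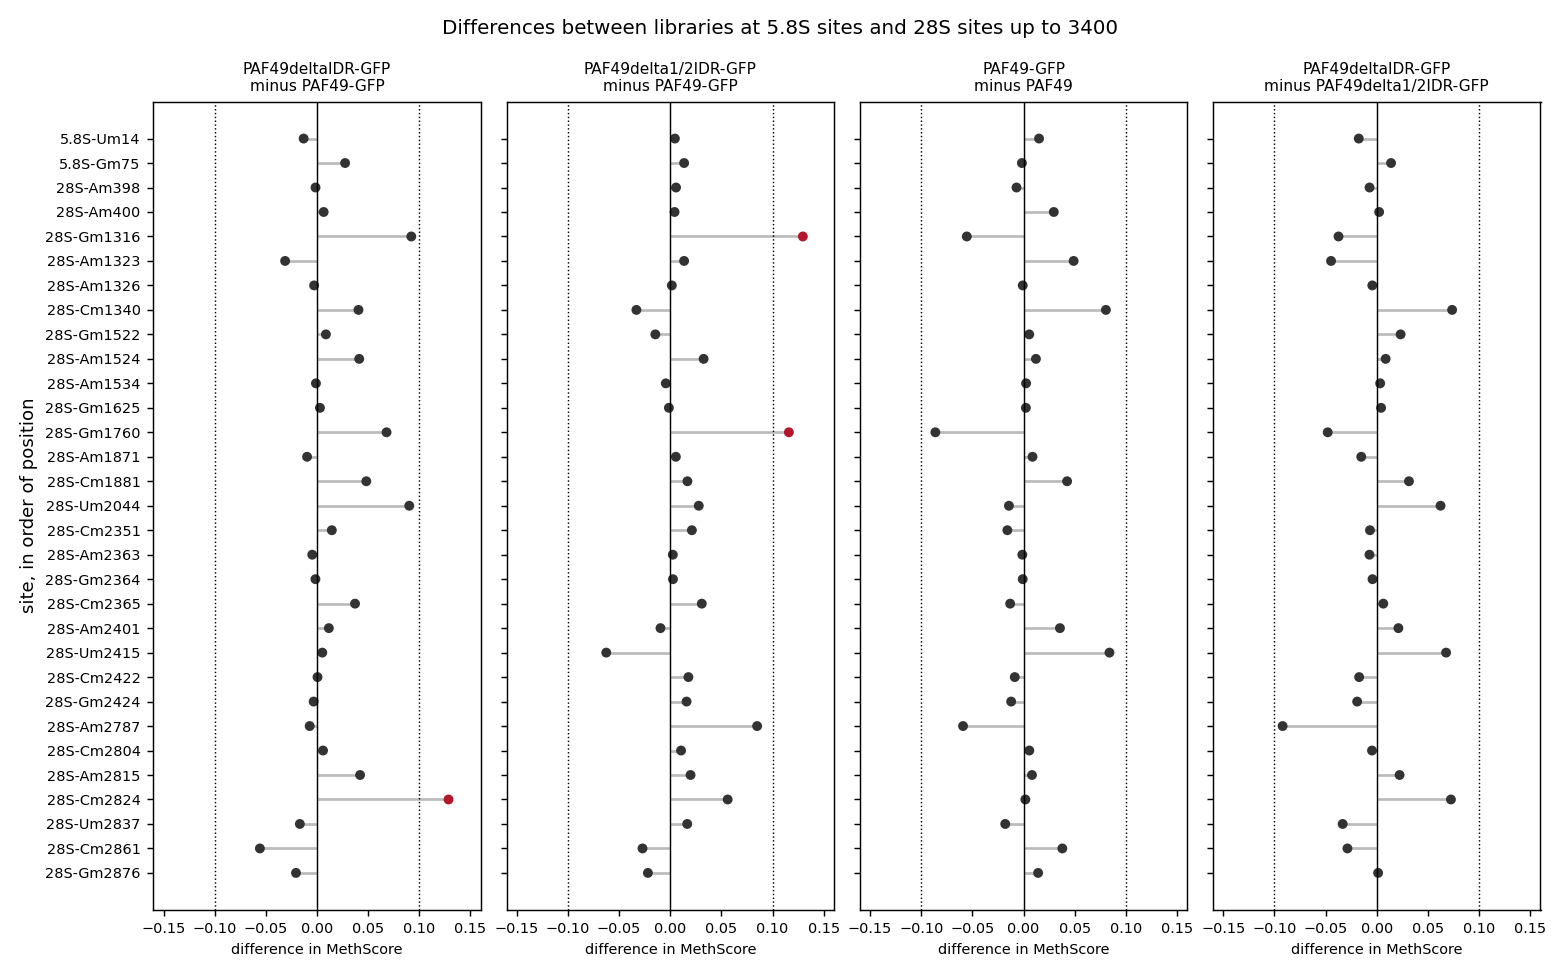
Difference in MethScore (horizontal axis) at each of the 31 sites, 1 panel per comparison, with dotted lines at -0.1 and 0.1 and points past them in red. The points in red are 28S-Cm2824 (0.129) for PAF49deltaIDR-GFP minus PAF49-GFP, and 28S-Gm1316 (0.130) and 28S-Gm1760 (0.116) for PAF49delta1/2IDR-GFP minus PAF49-GFP.

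When all 4 libraries were compared at once, each deletion scored above each full-length library at 10 of the 31 sites, beside 25% of all scored sites, and below at 1, beside 5.56%. The 10 sites were 28S-Cm2824, 28S-Gm1316, 28S-Am1524, 28S-Am2815, 28S-Cm2365, 28S-Cm1881, 28S-Um2044, 5.8S-Gm75, 28S-Cm2804 and 28S-Am400, in order of the gap. Gaps of 0.02 or more were found at the first 3, beside 7.41% of all sites. The split depended on scaling. It was 9 above and 6 below once the libraries were set to 1 median, and 2 above and 2 below after quantile normalisation, where 28S-Cm2824 (0.0242) and 28S-Am1524 (0.0235) were the sites above. 28S-Gm1316 no longer had a gap there. Over all scored sites the split was 27 above and 6 below as deposited, 19 above and 23 below at 1 median, and 9 above and 14 below after quantile normalisation. The deletion libraries had the higher medians over all scored sites, 0.913 in PAF49deltaIDR-GFP and 0.915 in PAF49delta1/2IDR-GFP against 0.909 in PAF49-GFP and 0.908 in PAF49.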

How the data were processed

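RiboMethSeq was made from 4 HAP1 RNA samples, 1 library each. Per the labels' protocols, TRI Reagent RNA was hydrolysed in bicarbonate buffer and its end-repaired fragments went into small RNA libraries. Trimmomatic 0.36 and Bowtie2 2.3.3.1 are named, per the submitters' processing notes. For the score's formula, the rRNA reference and the depth, the sources used here give nothing. The authors deposited 1 MethScore per position and library, treated as a fraction because every value lies from 0 to below 1. A block of fold ratios in the authors' deposited table was not used.

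Means, ranges and differences were computed in Python 3.11.15 (pandas 2.3.3), and the counting was tested on simulated data. A difference of 0.1 or more was counted. Every site of the set is named: scores in each library are given for 5.8S sites, sites with a mean under 0.9, a range of 0.05 or more or a difference past 0.1, and the 3 steadiest, and the others by their range. Alternatives were other thresholds, the median shift (libraries set to 1 median), quantile normalisation, log2 odds (scores limited to 0.01 and 0.99), PAF49 as control and leaving out each library. Sites and lists were chosen with earlier results of these data known. Symbols of all 22 guide assignments are in RefSeq (GRCh38.p14).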

Additional observations from a re-analysis of the deposited data

How the results depend on the processing

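No paired analysis was possible because each group has 1 library. Sites with a mean of 0.9 or above numbered 11 as deposited and after the median shift, and 5 at a threshold of 0.95. Sites with a range of 0.05 or more numbered 12, and 4 at 0.1, and between 8 and 11 with 1 library left out. For the 4 comparisons (PAF49deltaIDR-GFP minus PAF49-GFP, PAF49delta1/2IDR-GFP minus PAF49-GFP, PAF49-GFP minus PAF49, PAF49deltaIDR-GFP minus PAF49delta1/2IDR-GFP) the sites past 0.1 numbered 1, 2, 0 and 0. The median shift left these counts as they were. A threshold of 0.05 gave 5 in each, and quantile normalisation 0, 1, 0 and 1. Counting changes of 1 in log2 odds gave 1, 2, 0 and 2. It counts 28S-Um2044 in all but the third, and its values against PAF49-GFP rest on the limit of 0.01. The sites counted were thus not the same as those past 0.1. In log2 odds, 28S-Cm2824 (0.838 for PAF49deltaIDR-GFP minus PAF49-GFP) was not counted. For PAF49delta1/2IDR-GFP minus PAF49-GFP, 28S-Gm1316 (0.752) was not counted and 28S-Gm1760 (1.11) was. With PAF49 as control the deletions had 2 and 0 sites. Both deletions lay beyond both full-length libraries at 11 sites, at 3 with a gap of 0.02, at 15 after the median shift and at 4 after quantile normalisation. The median differences of 0.00517, 0.0106, 0.00230 and -0.00418 became 0.00158, 0.00449, 0.00166 and -0.00170 with the median shift, and 0 in each after quantile normalisation. No median took the opposite sign. The cause of these changes was not tested. Depth is unknown, so counting error could not be set beside any score.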

Other observations

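How often each library was highest or lowest at the 31 sites was near the share over all scored sites. PAF49deltaIDR-GFP was highest at 13 sites and PAF49delta1/2IDR-GFP at 13, against 3 for PAF49-GFP and 2 for PAF49, where the shares of all scored sites were 37.0%, 38.0%, 15.7% and 9.26% in the same order. The lowest score was in PAF49deltaIDR-GFP at 9 sites and in PAF49delta1/2IDR-GFP at 3, against 7 for PAF49-GFP and 12 for PAF49, beside 27.8%, 11.1%, 23.1% and 38.0% of all scored sites. PAF49delta1/2IDR-GFP scored above PAF49 at 26 of the 31 sites, beside 76.9% of all scored sites, with a median difference of 0.0143. After the median shift it scored higher at 20 and lower at 11, and after quantile normalisation higher at 10, lower at 13 and tied at 8. Over all scored sites these splits were 62 higher and 46 lower, then 45 higher, 46 lower and 17 tied.

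Over the 31 sites, which share libraries and are not replicates, Pearson's r between libraries ran from 0.978 (PAF49deltaIDR-GFP with PAF49) to 0.995 (PAF49delta1/2IDR-GFP with PAF49). Spearman's rho was lowest and highest for the same pairs, at 0.938 and 0.988. The single site 28S-Um2044, at 0.0902 or lower in every library, spreads the scale on which r is taken.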
